A study of Mus musculus with 10 samples.

Results

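The genes described here are 9 markers used to recognise the stem and supporting cells of the adult mouse pituitary, namely Sox2, Sox9, Aldh1a2, S100b, Vim, Fstl1, Mia, Folr1 and Aldoc. They were taken as named by the study, and all 9 had a row in each of the 10 count tables, whose references share 24767 genes. The libraries were single-cell RNA-seq profiles of pituitaries from CD1 mice, dissociated without enzymes. At 8 weeks there were 3 wild-type female and 3 wild-type male libraries, 1 of each sex on the 10X Genomics platform and 2 of each sex by Drop-seq, where a number in the labels is shared by 1 female and 1 male library, called set A and set B here in the order of these numbers. A further Drop-seq library came from 8-week females of the mt/hGRF genotype whose transgene puts human growth hormone releasing factor under a metallothionein promoter, which is not specific to 1 cell type. At 13 weeks there was 1 Drop-seq library of a virgin wild-type female and 2 of lactating wild-type females. By the study's methods the wild-type Drop-seq libraries of 8 weeks each pooled 2 mice, while its results count fewer mice for them. Lactating library 2 pooled 2 mice, and the mt/hGRF library pooled mice whose number the sources give in different ways. No label separates the mice of a pool, so that p-values measure the spread between libraries.

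The stem cells of the anterior pituitary line the cleft between its lobes and lie scattered in the parenchyma. They are recognised by the transcription factors SOX2 and SOX9, and they give rise to the hormone cells. Folliculostellate cells, the S100-positive supporting cells of the gland, share many of these markers. Pituicytes are the astroglia of the neighbouring posterior lobe, and collagen-producing stromal cells surround both lobes, so that genes of glial or mesenchymal character may be found in any of these cells.

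Cells were placed in classes by other genes than the 9 markers, so that no marker chose the cells in which it was measured. A cell was called stem-gated when the genes of a list that included Cyp2f2, Lcn2, Cpxm2, Rbpms, Gfra2, Slc15a2 and Wif1 together gave at least 2 UMIs (unique molecular identifiers, each standing for 1 captured transcript end) and more than any other class list. This gate took 362 of 23432 kept cells, 15 to 77 in a library. Rbpms carried most of it at 16.2 UMIs per 10000, whereas Gfra2 and Wif1 were at or near 0. Pituicyte-gated cells (Nkx2-1, Rax, Col25a1, Scn7a, Lhx2, Adm) numbered 69, and at least 10 were found in 2 libraries, the virgin library and lactating library 2, with 18 in each. Collagen-gated cells (Col1a1, Col1a2, Col3a1, Dcn, Lum, Pdgfra, Ogn) numbered 1711. The class used as a reference was the Pou1f1 lineage, the cells that make growth hormone, prolactin and thyrotropin, with 5515 cells and 1075 Gh UMIs per 10000. A further 11284 cells passed no gate.

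Both supporting gates had a weak gene. Lcn2 let in neutrophil-type barcodes: 5 stem-gated cells held at least 5 UMIs of neutrophil genes, and S100a8 stood at 25 UMIs per 10000 in the gate and at 0 once Lcn2 was dropped, with 347 cells then gated and 334 shared. Col1a2 let in prolactin-rich cells, with 1205 Prl UMIs per 10000 in collagen-gated cells. Without it 214 collagen-gated cells remained, and Dcn, a matrix proteoglycan of fibroblasts, was at 58.3 instead of 8.25 UMIs per 10000. The fits were repeated without the 2 genes, a choice made after seeing the data, and those values are given where a call changed and beside some other results. The kept cells of a library held between 960289 and 5080590 UMIs, with medians of 534 to 784.5 UMIs per cell in Drop-seq and of 1246 and 1028 in the female and male 10X libraries. No pair of libraries on the same platform shared more than 6 cell barcodes.

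The promoters of these genes differed widely in base composition. The 250 bases before the annotated start site of 3 markers are shown because Sox2 encodes the defining factor, Aldh1a2 had no UMI in pituicyte-gated cells, and Mia gave the most UMIs of all markers in stem-gated cells. The sequences are those of RefSeq on GRCm38.p6, read 5′ to 3′ on the strand of the gene, and capitals mark the single match to a SOX-type motif.
Sox2, chr3:34649745-34649994, plus strand: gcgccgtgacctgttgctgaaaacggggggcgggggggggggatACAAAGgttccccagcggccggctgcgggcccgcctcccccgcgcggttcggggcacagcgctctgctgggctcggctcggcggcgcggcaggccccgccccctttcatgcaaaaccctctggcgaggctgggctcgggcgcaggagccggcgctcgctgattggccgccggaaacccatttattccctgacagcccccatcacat
Aldh1a2, chr9:71215539-71215788, plus strand: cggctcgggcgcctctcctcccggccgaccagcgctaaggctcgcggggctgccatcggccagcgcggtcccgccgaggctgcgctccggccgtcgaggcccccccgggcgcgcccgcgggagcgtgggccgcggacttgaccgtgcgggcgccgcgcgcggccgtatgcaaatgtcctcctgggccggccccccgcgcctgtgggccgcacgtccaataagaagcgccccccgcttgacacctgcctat
Mia, chr7:27181150-27181399, minus strand: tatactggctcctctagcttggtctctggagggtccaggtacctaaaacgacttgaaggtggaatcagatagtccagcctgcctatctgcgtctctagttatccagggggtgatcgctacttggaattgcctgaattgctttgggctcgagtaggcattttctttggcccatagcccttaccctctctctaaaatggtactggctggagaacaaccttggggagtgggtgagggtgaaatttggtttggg

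The Sox2 stretch had 72.0% G and C with 27 CpG dinucleotides, and that of Aldh1a2 had 77.6% with 40. The Mia stretch had 50.4% with 4 CpG dinucleotides, near the medians of 52.4% and 6 over all 32841 RefSeq promoters. Promoter entries were found for 7 of the 9 markers. The motifs ACAATG and ACAAAG were searched on both strands and differ in 1 letter, so that no stretch of 6 letters matches both. A match was held by 1 of the 7 markers, namely Sox2, whose ACAAAG begins 206 bases before the Sox2 start site. Of all promoters, 10.7% held ACAATG, 16.5% held ACAAAG and 25.2% held either. These letters describe the windows only.

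In the GENCODE annotation of GRCm38, Sox2 lies on chromosome 3 at 34650405-34652461, inside the longer noncoding gene Sox2ot on the same strand, and its start there lies downstream of the RefSeq start used for the promoter. Sox9 lies on chromosome 11 at 112782224-112787760, Aldh1a2 on chromosome 9 at 71215789-71296243 and Vim on chromosome 2 at 13573927-13582826. S100b lies on chromosome 10 at 76253853-76261159 and overlaps Dip2a on the opposite strand, and Fstl1 lies on chromosome 16 at 37776873-37836514. Mia (chromosome 7, 27179742-27181157) overlaps the protein-coding gene Gm21983 on the same strand, so that reads could be split between them, Folr1 (chromosome 7, 101858331-101870788) overlaps Anapc15 on the opposite strand, and Aldoc lies on chromosome 11 at 78322968-78327781. Counting was stranded in the Drop-seq tables.

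Of the 9 markers, 8 stood far higher in stem-gated cells than in the Pou1f1 lineage, and S100b did not. The leading gene was Mia, which encodes a secreted cartilage and melanoma protein, at 38.3 UMIs per 10000, followed by Aldoc and Folr1, then Sox2 and Aldh1a2, then Sox9 and Fstl1, and Vim. By the mean over libraries instead of the pooled level, Aldh1a2 stood above Sox2 and Fstl1 above Sox9. Levels are UMIs per 10000 UMIs of the class, summed over libraries. Because a UMI marks a transcript end, they were not divided by gene length, and an order between genes may also depend on capture. In edgeR's quasi-likelihood test on the sums of each library and class, with Benjamini-Hochberg adjustment over 5952 genes, all 8 markers that passed the filter on low counts were called higher in stem-gated cells than in the Pou1f1 lineage, where 16.8% of all genes tested were called higher and 25.3% lower. With no such filter all 9 were tested and the same 8 were called. The study named these genes as markers on these same samples, so that the list is not independent evidence of its direction.

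**Figure D1:**
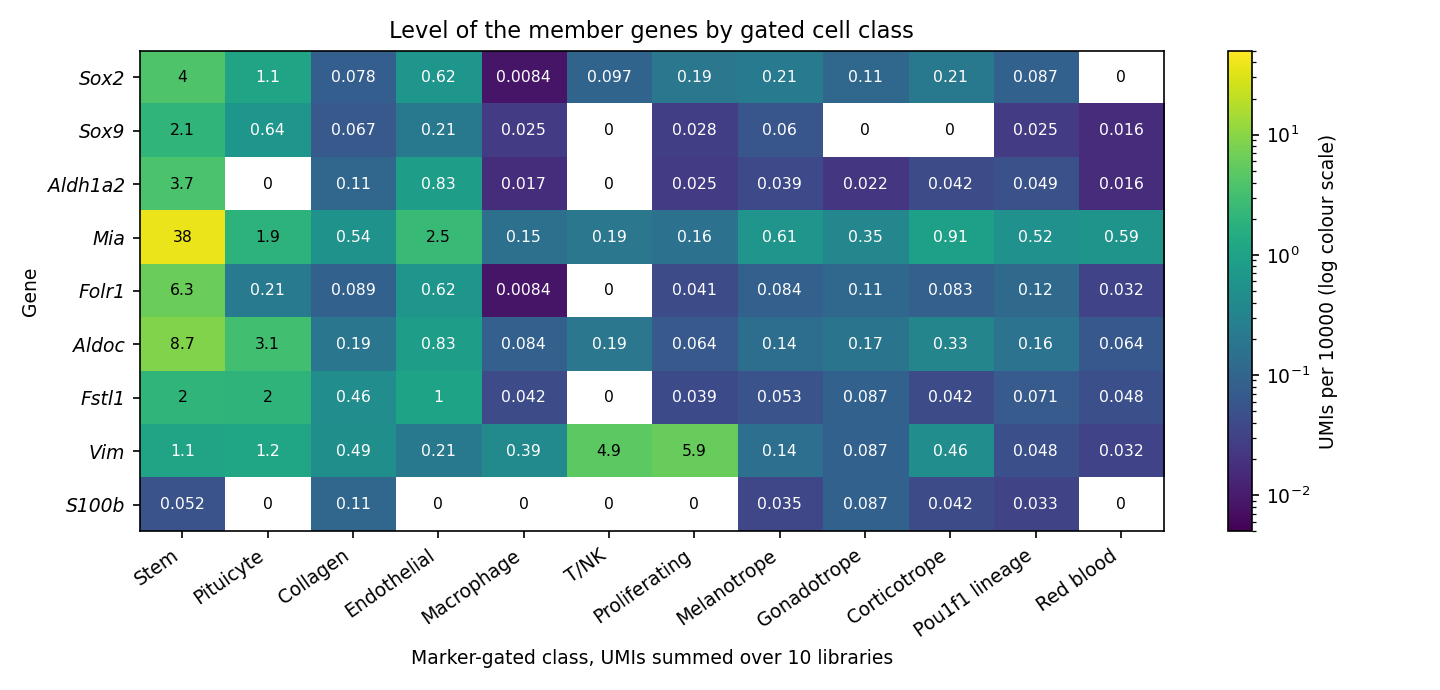
Pooled level of each of the 9 genes (rows) in the 12 gated classes (columns), in UMIs per 10000 on a logarithmic colour scale, with the value printed in each cell and white for a class with no UMI. The stem column holds the highest value of Sox2, Sox9, Aldh1a2, Mia, Folr1 and Aldoc, whereas Vim peaks in proliferating cells at 5.93 and S100b in the collagen column at 0.106. Fstl1 is near equal in the pooled stem (2.04) and pituicyte (2.02) columns. In the 2 libraries with at least 10 pituicyte-gated cells it was lower in stem-gated than in pituicyte-gated cells. With the gates without Lcn2 and Col1a2, which are not drawn, Fstl1 was 1.87 in stem-gated, 2.07 in pituicyte-gated and 2.66 in collagen-gated cells.

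Sox2, the factor that defines the pituitary stem cell, stood at 3.99 UMIs per 10000 in stem-gated cells (mean over libraries 3.40 ± 1.52, SD, n = 10). Its lowest library was the set B female at 1.57 and its highest the virgin library at 6.24, with a median of 3.39. The level in the Pou1f1 lineage was 0.0873, and the fold change was 4.72 ± 0.35 (log2, SE, edgeR adjusted p = 1.94e-21). Sox2 was not confined to the gate, since 36.3% of its 630 UMIs lay in stem-gated cells. Melanotropes held 60 UMIs at 0.211 per 10000 and proliferating cells 83 at 0.191, and the exact 95% Poisson intervals of these 2 levels, 0.161 to 0.272 and 0.152 to 0.237, overlapped. They lay above that of the Pou1f1 lineage, 0.0666 to 0.112, but the 2 levels did not exceed that of barcodes too small to be cells, 0.244 in 10X and 0.313 in Drop-seq libraries. Such intervals cover counting error only.

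Sox9, which acts with SOX2 in the stem cells and marks their supporting state, was lower, at 2.11 UMIs per 10000 (1.93 ± 0.977, SD, n = 10; median 2.10). The male 10X and the set A female libraries were lowest at 0.265 and 0.279, and the set A male was highest at 3.02. Of its 231 UMIs, 52.4% lay in the stem gate, against 0.0247 per 10000 in the Pou1f1 lineage. The log2 fold change was 5.30 ± 0.47 (edgeR adjusted p = 5.57e-17). No UMI of Sox9 was found in gonadotropes, corticotropes or T/NK cells.

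Aldh1a2 encodes the enzyme that makes retinoic acid from retinal. Its level was 3.73 UMIs per 10000 in stem-gated cells (3.88 ± 2.45, SD, n = 10), and it varied more than that of most markers. Both set B libraries were highest (female 7.86, male 7.84), and lactating library 1 was lowest at 0.234, where it rested on 1 UMI. Between them the other libraries ran from 2.15 in the 10X female to 5.28 in the set A male. Against 0.0495 in the Pou1f1 lineage the log2 fold change was 5.40 ± 0.36 (edgeR adjusted p = 1.13e-24).

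Mia was detected in every library, from 16.6 UMIs per 10000 in lactating library 1 to 75.7 in the female 10X library, with a median of 34.8 (36.1 ± 16.4, SD, n = 10). It was also the highest of the markers in the Pou1f1 lineage at 0.521, and 56.6% of its 3891 UMIs were stem-gated. Its log2 fold change over the Pou1f1 lineage was 5.64 ± 0.40 (edgeR adjusted p = 1.08e-22).

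Folr1, a folate receptor anchored in the membrane, stood at 6.31 UMIs per 10000 in stem-gated cells (6.40 ± 2.55, SD, n = 10), between 3.51 in lactating library 1 and 12.7 in the male 10X library. Without Lcn2 in the gate the highest library fell to 8.61. Its level in the Pou1f1 lineage was 0.119, and the log2 fold change of 5.22 ± 0.31 had the smallest adjusted p of the markers (edgeR, 1.37e-27). Aldoc, the aldolase of brain and astroglia, stood at 8.68 (8.33 ± 3.96, SD, n = 10), between 3.67 in the set B female and 14.9 in the mt/hGRF library, against 0.164 in the Pou1f1 lineage. The log2 fold change was 5.04 ± 0.36 (edgeR adjusted p = 1.33e-22).

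Fstl1, a secreted glycoprotein that binds BMP and TGF-beta family ligands, stood at 2.04 UMIs per 10000 (2.02 ± 1.51, SD, n = 10), with all 3 males of 8 weeks above all other libraries. Vim, the intermediate filament of mesenchymal and glial cells, was lowest among the 8 at 1.10 (1.02 ± 0.572, SD, n = 10), with no UMI in the set B female. The pooled level of Vim was near that of low-UMI barcodes, 1.00 in 10X and 0.738 in Drop-seq libraries, but the latter varied by library. Vim lay below the low-UMI barcodes of the same library in the 10X female (0.645 against 1.03), set B female (0 against 2.30) and set B male (1.02 against 1.07). It lay above them in the others, among them the virgin library (1.36 against 0) and lactating library 1 (0.234, from 1 UMI, against 0.0635). Lactating library 2, with 91 low-UMI UMIs, could not be compared. The log2 fold changes of Fstl1 and Vim over the Pou1f1 lineage were 3.97 ± 0.37 and 4.03 ± 0.56 (edgeR adjusted p = 2.87e-16 and 2.81e-09).

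S100b, a calcium-binding protein long used to stain folliculostellate cells, gave 3 UMIs in stem-gated cells, all in lactating library 1, or 0.0523 per 10000. This pooled level did not exceed that in barcodes with too few UMIs to be cells, 0.116 in 10X and 0.0813 in Drop-seq libraries. In lactating library 1 alone S100b stood at 0.703 in stem-gated cells, and the 314714 UMIs of its low-UMI barcodes held 0 of S100b. Whether the 3 UMIs are background was not tested. In all S100b had 80 UMIs in kept cells, of which 23 lay in the Pou1f1 lineage and 19 in collagen-gated cells. With no filter its log2 difference between stem-gated cells and the Pou1f1 lineage was 0.24 ± 0.73 (edgeR adjusted p = 1.00).

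**Figure D2:**
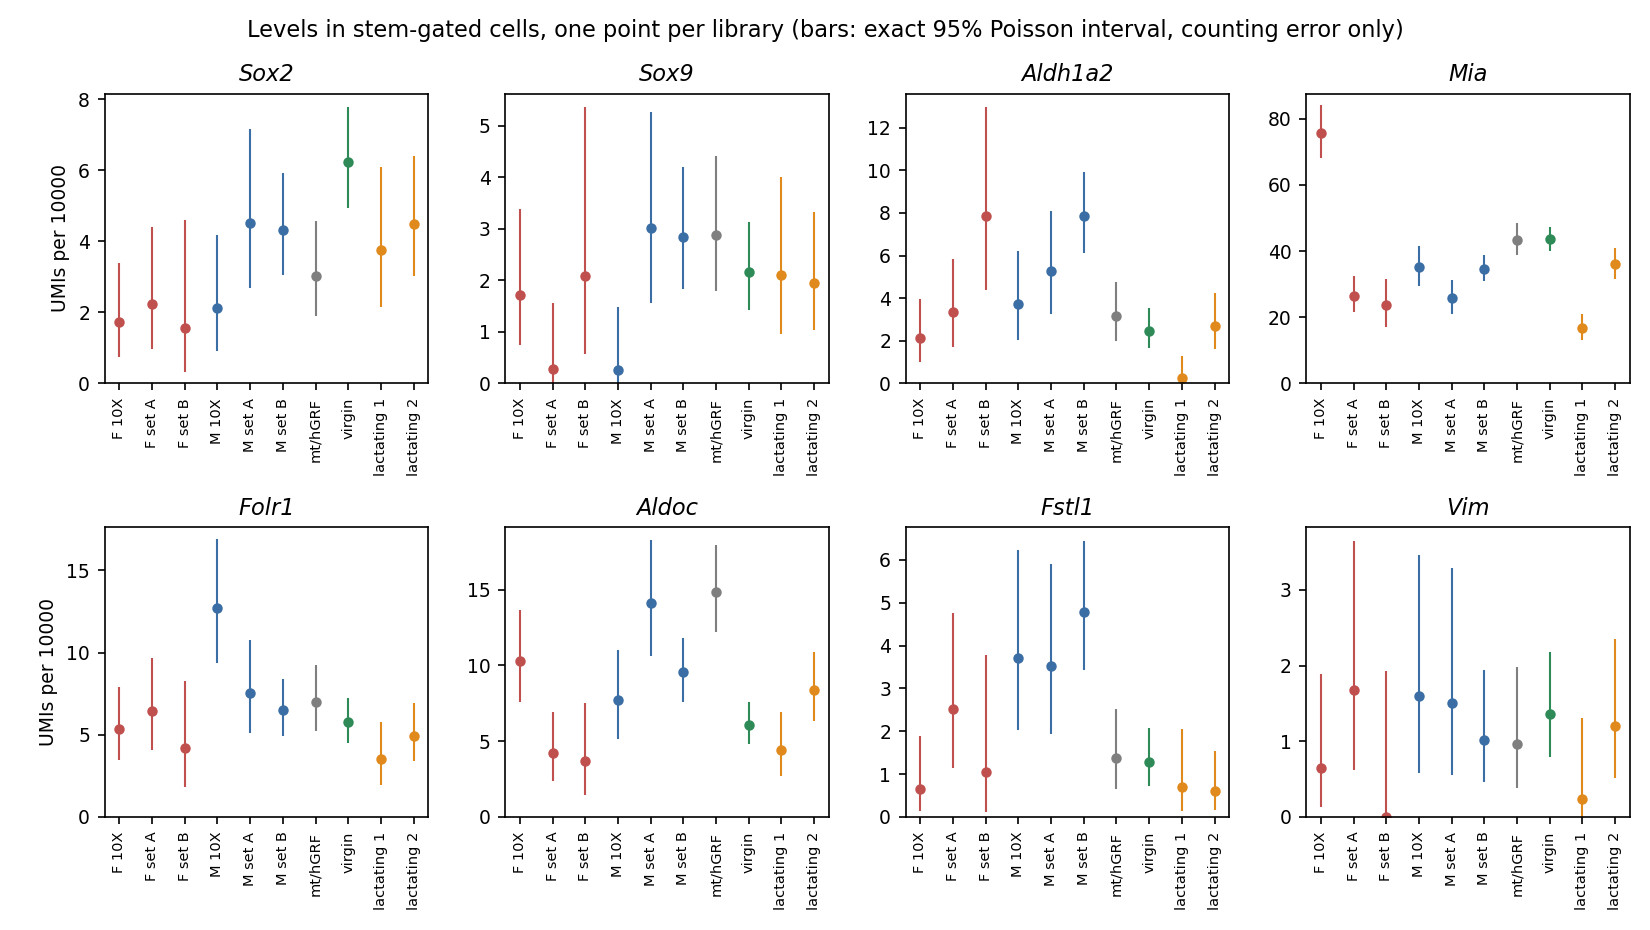
Level in stem-gated cells of the 8 genes other than S100b, in UMIs per 10000, with 1 point per library and exact 95% Poisson intervals (counting error only). F and M are wild-type female and male libraries of 8 weeks; the 3 male Fstl1 points, at 3.52 to 4.77, lie above those of every other library.

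The share of cells in which a marker was seen depends on depth, so that each cell was thinned to 300 UMIs. Mia was then found in 39.0% of stem-gated cells (exact 95% binomial interval 33.9 to 44.2, counting error only). By library its share ran from 11.1% in lactating library 1 to 66.7% in the 10X female. Aldoc was found in 19.9% of stem-gated cells, Folr1 in 18.8%, Aldh1a2 in 10.5%, Sox2 in 7.18%, Sox9 in 5.52%, Fstl1 in 3.87% and Vim in 2.76%. In the Pou1f1 lineage, where these genes serve as background, the same shares were 1.29% for Mia and between 0.0363% and 0.345% for the other 7 genes. Unthinned, with median depths of 974.5 UMIs per stem-gated and 894 per Pou1f1-lineage cell, 62.7% of stem-gated cells had a Mia UMI against 4.24%, and 31.5% had a Sox2 UMI against 0.907%.

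The markers were found in the same cells. After thinning, 30.1% of stem-gated cells held UMIs of at least 2 markers, against 5.80% of pituicyte-gated cells and at most 0.780% of every other class, the ungated cells included. Unthinned, 32.9% of stem-gated cells held at least 4 markers, with up to 8 in a cell. Sox2 and Sox9 were seen together in 40 stem-gated cells, where 21.7 would be found if they were independent, and of the 61 such cells among all kept cells 40 were stem-gated. Mia and Aldoc shared 147 cells against 109, and Aldh1a2 and Fstl1 shared 45 against 20.9. Cells of greater depth show more of every gene, and how far this accounts for the shared cells was not tested.

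By edgeR's calls pituicytes shared 4 of the markers. Sox2, Sox9, Aldoc and Fstl1 were called higher in pituicyte-gated cells than in the Pou1f1 lineage, where 1.86% of all genes were called higher. The fold was greatest for Fstl1 at 5.32 ± 0.74 (log2, SE, edgeR adjusted p = 3.29e-08). Its pituicyte level was 5.46 UMIs per 10000 in the virgin library and 2.60 in lactating library 2, against 1.28 and 0.598 in stem-gated cells. Aldoc was higher than in the Pou1f1 lineage by 4.25 ± 0.68 (adjusted p = 1.48e-06), with 7.28 and 4.67 in the pituicyte-gated cells of these libraries. Sox9 was higher by 4.42 ± 1.12 (adjusted p = 0.00907) and Sox2 by 3.15 ± 0.82 (adjusted p = 0.012), the latter from 7 UMIs in the virgin library and 1 in lactating library 2. These calls rest on 18 cells in each of 2 libraries, and the whole class held 6 Sox9 UMIs. Vim stood at 1.17 UMIs per 10000 in pituicyte-gated and 1.10 in stem-gated cells. Its change over the Pou1f1 lineage had a wide error and was not called (log2 3.48 ± 1.98, edgeR adjusted p = 0.306). Without the virgin library only Fstl1 was called, and the log2 changes were 1.27 for Sox2, 2.89 for Sox9 and 3.34 for Aldoc. Sox2 also lost its call with no filter, with a gate of 3 UMIs and without the cells of most UMIs, at log2 changes of 2.67, 2.52 and 2.83.

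Mia, Folr1 and Aldh1a2 separated stem-gated cells from pituicytes. Aldh1a2 had no UMI among 93931 of pituicyte-gated cells, so that stem-gated cells were at least 11.7-fold higher when the floor is set at 3 UMIs over the class (edgeR adjusted p = 0.00417). Mia was higher by 4.25 ± 0.84 on the log2 scale (adjusted p = 0.000332) and Folr1 by 4.84 ± 0.99 (adjusted p = 0.000708), against 0.790% of all genes called higher. None of the 3 was called without the virgin library or without lactating library 2, which each leave 1 library with pituicytes, while the log2 difference of Mia was 4.84 and 4.06. That of Folr1 was 4.14 without the virgin library, and without lactating library 2 no UMI of Folr1 was left in the pituicytes tested. Sox2, Sox9, Aldoc, Fstl1 and Vim were not called, and the log2 difference of Fstl1 was -1.35 ± 0.67 (adjusted p = 0.392).

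**Figure D3:**
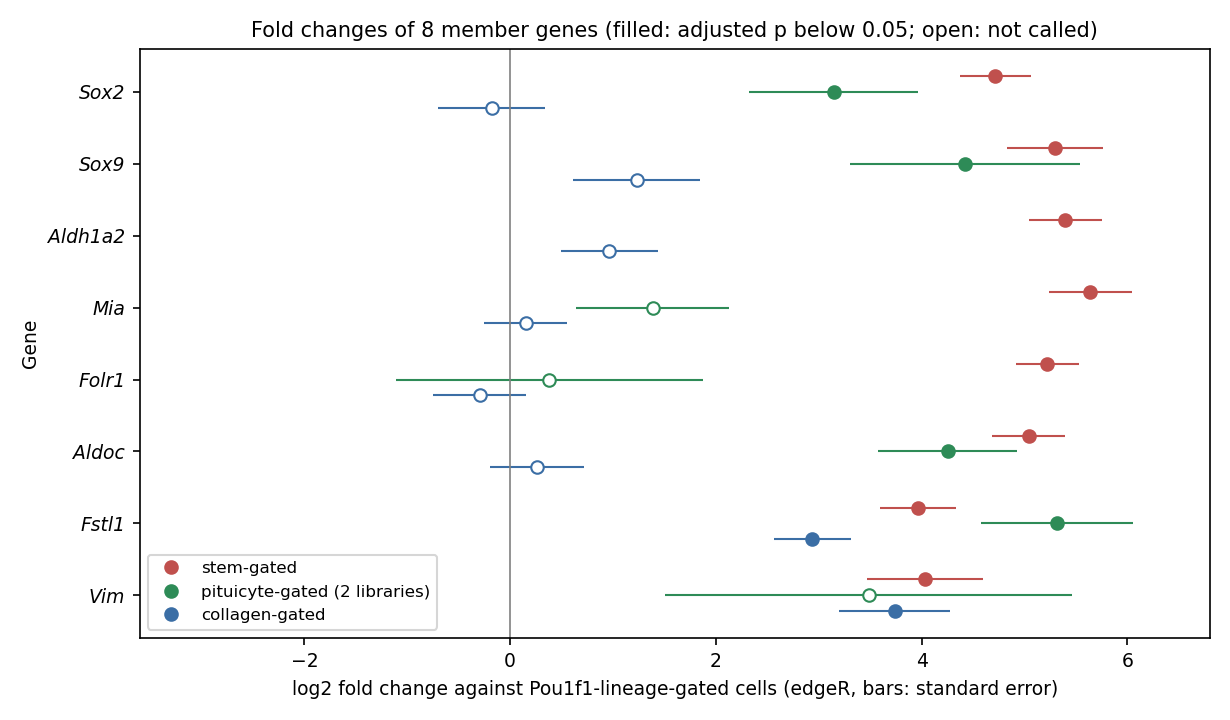
Log2 fold change over the Pou1f1 lineage, with its standard error, of 8 genes in stem-gated, pituicyte-gated and collagen-gated cells (edgeR; filled points were called at an adjusted p below 0.05). Aldh1a2 in pituicytes is left out because that class had no UMI; all 8 stem points are filled and lie between 3.97 and 5.64, whereas in collagen-gated cells only Fstl1 and Vim are filled.

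Stromal cells shared Fstl1 and Vim. Both were called higher in collagen-gated cells than in the Pou1f1 lineage, where 3.73% of all genes were, by 2.94 ± 0.38 and 3.74 ± 0.54 on the log2 scale (edgeR adjusted p = 6.22e-10 and 2.83e-08). Fstl1 ran from 0.182 UMIs per 10000 in lactating library 2 to 1.57 in the set A male, and Vim from 0 in the female 10X library to 3.19 in the set B female. The pooled level of Vim, 0.489, did not exceed that of low-UMI barcodes, 1.00 in 10X and 0.738 in Drop-seq libraries, whereas that of Fstl1, 0.455, did (0.134 and 0.300). Among the 214 cells gated without Col1a2 both were more abundant, with 2.66 UMIs per 10000 of Fstl1 and 3.22 of Vim, and their log2 changes were 4.42 ± 0.39 and 5.10 ± 0.58. With the gate as set, and without barcodes above 100 UMIs per 10000 of ribosomal pseudogenes, that of Vim was 2.33 ± 0.44. In the 214 cells gated without Col1a2, Aldh1a2 (2.31 ± 0.60, adjusted p = 0.00139) and Sox9 (2.28 ± 0.75, adjusted p = 0.0119) were called too, from 11 and 7 UMIs. S100b, untested in the filtered fit, was higher in collagen-gated cells by 1.99 ± 0.55 with no filter (edgeR adjusted p = 0.0171), while DESeq2 gave 1.93 ± 1.78 and no adjusted p, and at 0.604 UMIs per 10000 without Col1a2 it was above its level in low-UMI barcodes.

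Against collagen-gated cells, 7 markers were called higher in stem-gated cells, where 12.0% of all genes were. Folr1, Mia, Sox2, Aldoc, Aldh1a2 and Sox9 differed by 5.52 to 4.07 on the log2 scale (edgeR, highest adjusted p = 1.33e-09), and each remained called under every alternative. With the gates without Lcn2 and Col1a2 the ratio of the pooled levels was 8.46 instead of 35.3 for Aldh1a2 and 7.61 instead of 31.6 for Sox9. Fstl1 differed by 1.03 ± 0.36 (adjusted p = 0.0217), but with the gates without Lcn2 and Col1a2 it turned to -0.68 ± 0.36 (adjusted p = 0.253). It was called in 11 of 18 alternatives, and not with DESeq2 (0.88), no filter on low counts (0.88) or a gate of 3 UMIs (0.54), nor without the virgin library (0.84), the set A female (0.92) or the set B male (0.63). Vim was not called (0.29 ± 0.50, adjusted p = 0.721), and with the gates without Lcn2 and Col1a2 its difference was -1.30 ± 0.57 (adjusted p = 0.132).

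Vim differed from the other markers in where its UMIs lay. Of 3372 UMIs, 1.87% were in stem-gated cells, and the highest levels were in proliferating cells at 5.93 and T/NK cells at 4.92 UMIs per 10000. A group of 1104 barcodes, 4.71% of kept cells with 17.4% of UMIs, held more than 100 UMIs per 10000 of ribosomal pseudogenes, and 90.0% of Vim UMIs lay in them. The level of Vim was 6.36 there and 0.149 elsewhere. By library the share ran from 98.1% (male) and 95.4% (female) by 10X to 0% in lactating library 2, which had 3 such barcodes. These barcodes included 321 of the 664 proliferating cells, 47 of the 81 T/NK cells and 15 of the 362 stem-gated cells. In the male 10X library 157 of them held 52.3% of all UMIs, with a median of 19330 UMIs against 970.5 in other cells. Their part in the level of Vim was not tested beyond leaving them out. Vim was then still higher in stem-gated cells than in the Pou1f1 lineage (3.78 ± 0.40, edgeR adjusted p = 1.08e-15) and was called higher than in collagen-gated cells too (1.45 ± 0.41, adjusted p = 0.00256), whereas all barcodes with the gates without Lcn2 and Col1a2 gave the opposite direction.

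**Figure D4:**
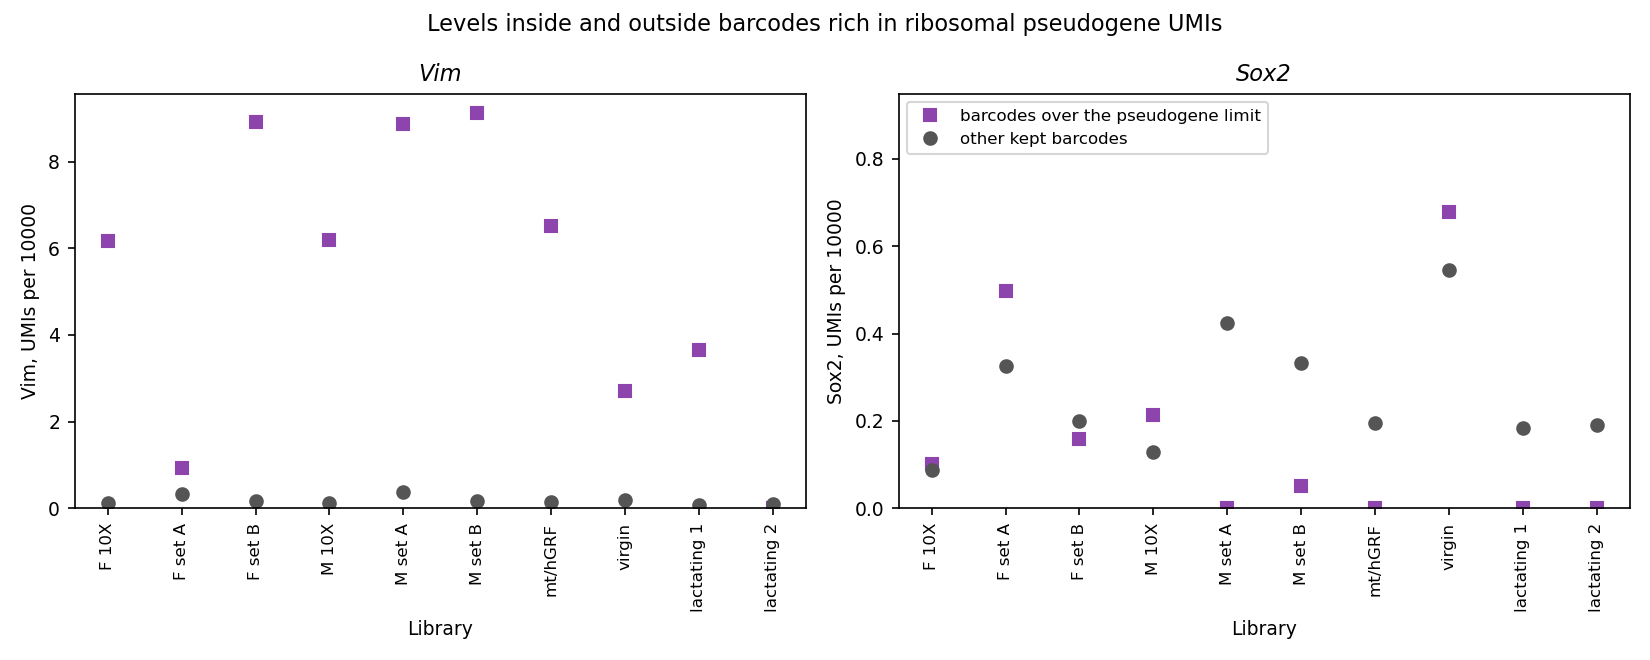
Level of Vim (left) and Sox2 (right) in UMIs per 10000 by library, in barcodes over the limit of 100 ribosomal pseudogene UMIs per 10000 (squares) and in all other kept barcodes (circles). Vim is higher inside these barcodes in 9 of 10 libraries, reaching 9.12 in the set B male, whereas Sox2 shows no common direction.

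The other markers were less concentrated there. Sox2 had 13.5% of its UMIs in these barcodes, 64.8% in the male 10X library, Fstl1 12.1%, and the remaining markers 3.75% to 7.79%. Single libraries departed from this, since in the set A female these barcodes held 46.4% of Mia, 45.0% of Aldoc and 43.6% of Folr1 UMIs and 16.7% of all UMIs, and in the set B female they held 63.0% of 27 Fstl1 UMIs. The genes whose levels over the 12 classes ran most like that of Vim were Cox5a and Gm10263 (Pearson r = 0.93 and 0.92 across classes, of 11115 genes compared).

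By the same measure Sox2 ran with Mlc1 and Phgdh (r = 0.95 for both), Sox9 with Tgfb2 and Mgst1 (0.98, 0.97), Aldh1a2 with Tril and Ednrb (0.99, 0.98), Mia with Gstt1 and Mlc1 (0.95, 0.94), Folr1 with Inhbb and Tril (0.96, 0.95), Aldoc with Mlc1 and Tgfb2 (0.98, 0.96) and Fstl1 with Igfbp2 and G0s2 (0.97, 0.96). Mlc1, a membrane protein of astroglial end feet, thus appeared beside 3 markers, at 2.49 UMIs per 10000 in stem-gated cells. Those of S100b were Tmtc1 and 4930579G18Rik (0.94, 0.89), both near 0 in stem-gated cells. The points are classes drawn from the same libraries, and the correlations are descriptions.

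Other genes of the same pathways gave the surroundings of the markers, in a comparison where 16.8% of all genes were called higher in stem-gated cells. Among retinoic acid genes beside Aldh1a2, Aldh1a1 (5.05 ± 0.54) and Dhrs3 (2.09 ± 0.66) were called higher in stem-gated cells than in the Pou1f1 lineage and Rbp4, the circulating retinol carrier, was called lower (-2.56 ± 0.54). Of 12 Notch and Hippo genes the 4 tested were all higher, with Hes1 at 4.17 ± 0.40 and Notch2 at 4.03 ± 0.40. Among 13 SOX factors and their partners 8 were tested and 4 called higher, led by Pax6 (3.79 ± 0.38), while Pitx1, Lhx3 and Sox11 were among those not called. The 9 astroglial genes tested of 11 were all called higher, among them Aqp4, a water channel (4.98 ± 0.47), and Glul, glutamine synthetase (4.45 ± 0.36). Not tested were Gfap, with 0 UMIs in stem-gated cells, and Slc1a2, at 0.0523 UMIs per 10000 there and 0.272 in the Pou1f1 lineage. S100a6 and S100a10, among those tested, stood at 1.20 and 3.10 in stem-gated cells and higher in T/NK cells, at 10.1 and 10.5. In pituicytes 3 of the 9 astroglial genes tested were called higher than in the Pou1f1 lineage, against 1.86% of all genes. Slc1a3, a glutamate transporter, stood at 5.54 UMIs per 10000 there and at 0.819 in stem-gated cells, a difference that was not called (log2 -1.56 ± 0.69 for stem-gated against pituicyte-gated cells, edgeR adjusted p = 0.311). The edgeR adjusted p-values of the named genes that were called were at most 0.00711, and the median log2 change over all genes tested was -0.26.

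The remaining lists were less uniform. Beside Vim, the intermediate filaments Krt8, Krt18 and Synm were all called higher in stem-gated cells (3 of 3 tested, of 6), and beside Fstl1, Igfbp5 was higher (4.91 ± 0.44) while Sparc and Sparcl1 were not called, 1 of 3 tested of 7. In collagen-gated cells, where 3.73% of all genes were called higher, all 3 of these secreted modulators were, Sparc by 4.06 ± 0.43. Around Folr1, no folate gene tested was called higher, and Mthfd2 was called lower (-1.52 ± 0.51). Around Aldoc, 5 of 6 glycolysis genes tested of 8 were called higher in stem-gated cells, against 16.8% of all genes. Eno1 differed most at 2.47 ± 0.34, less than Aldoc itself. The called genes named here had edgeR adjusted p-values of at most 0.0114.

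None of the markers was called between conditions in stem-gated cells. In simulated counts the comparison of sexes called 10.9% of true log2 differences of 1. Most differences of that size would thus be missed. The comparison of sexes asked whether stem cells differ between male and female mice of 8 weeks, in a fit across 1648 genes that tested 7 markers and left out Vim and S100b for low counts. edgeR called 0 markers at an adjusted p below 0.05, against 0.485% of all genes, 1 marker had an unadjusted p below 0.05, and DESeq2 also called 0. That marker was Fstl1, with 3.71, 3.52 and 4.77 UMIs per 10000 in the 10X, set A and set B males and 0.645, 2.51 and 1.05 in the matching females. The sexes did not overlap, and the log2 difference was 1.36 ± 0.57 with an edgeR adjusted p of 1.00, or 0.443 with the pairs as a block. Without the barcodes rich in ribosomal pseudogenes it was 2.31 ± 0.71 (adjusted p = 0.119). Folr1 did not overlap either, with 12.7, 7.55 and 6.48 in males and 5.37, 6.43 and 4.19 in females, the closest values differing by less than their counting error (log2 0.53 ± 0.46, adjusted p = 1.00). Every male exceeded every female for 5.22% of all genes. Sox2 was higher in the male of all 3 pairs (3.66 ± 1.33 against 1.84 ± 0.349, SD, n = 3 each), as were 18.3% of all genes, and its adjusted p was 1.00 (edgeR).

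In the whole libraries, where fewer cells of a type and less RNA per cell cannot be told apart, all 9 markers were tested among 14733 genes. Between the sexes edgeR called 0, against 0.115% of all genes, with 0 at an unadjusted p below 0.05, and DESeq2 called 0. The largest difference was that of Aldoc at 0.89 ± 0.45 on the log2 scale.

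The lactation comparison asked whether the stem compartment changes in nursing females, with 2 lactating libraries against 1 virgin library. In stem-gated cells edgeR and DESeq2 called 0 of 7 markers (0.485% of all genes called by edgeR), and 0 had an unadjusted p below 0.05. The levels of 6 of 9 markers, among them Vim, were lower in both lactating libraries than in the virgin one. So were 42.1% of the 1648 genes tested, which leave out Vim and S100b. The fitted log2 difference of Sox9, 1 of the 6, was nevertheless 0.11 ± 0.75. Sox2 was at 3.75 and 4.48 UMIs per 10000 against 6.24, and Mia at 16.6 and 36.0 against 43.5, while Aldoc at 4.45 and 8.37 lay on both sides of 6.08.

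In the whole libraries 8 of 9 markers, all but S100b, were lower in both lactating libraries, as were 51.4% of all genes. Sox2 stood at 0.183 and 0.191 against 0.547 (log2 -1.30 ± 0.45), Aldh1a2 at 0.0317 and 0.0927 against 0.232 (-1.52 ± 0.60) and Mia at 0.623 and 1.14 against 3.02 (-1.50 ± 0.74). Both edgeR and DESeq2 called 0 markers, against 0.00679% of all genes called by edgeR, and 2 markers, Sox2 and Aldh1a2, had an unadjusted p below 0.05. Prl took 1031 and 1279 UMIs per 10000 in the lactating libraries and 934 in the virgin one, and its part in the lower levels was not tested.

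In the mt/hGRF library, compared with wild-type females of 8 weeks to ask whether the transgene alters these cells, Aldoc in stem-gated cells was at 14.9 UMIs per 10000 against 10.3, 4.19 and 3.67 (log2 1.36 ± 0.65, edgeR adjusted p = 0.942). It was the 1 marker with an unadjusted p below 0.05. Again 0 of 7 were called by edgeR, against 0.485% of all genes, and 0 by DESeq2. In the whole library Vim was at 0.235 against 1.96, 0.427 and 1.78 (log2 -1.94 ± 0.69, edgeR adjusted p = 0.467), and was called once genes of low counts were kept (adjusted p = 0.0236). edgeR called 0 of 9, against 0.0747% of all genes, with 1 at an unadjusted p below 0.05. Without the barcodes rich in ribosomal pseudogenes the difference of Vim was -0.53 ± 0.60. Groups of 1 library borrow their spread from the others in these fits. Of barcodes within the limits on UMIs and genes, the mitochondrial limit removed 38.7% in the mt/hGRF library. In the other libraries it removed 6.95% to 20.4%, and its bearing on these values was not tested.

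The share of kept cells that passed the stem gate was 0.869% (female) and 0.905% (male) by 10X, and 2.66%, 1.35%, 2.54% and 2.76% in the set A female, set B female, set A male and set B male. The mean was 2.07% ± 1.01 in males and 1.63% ± 0.926 in females (SD, n = 3 each), a difference of 0.443 percentage points (exact permutation test, two-sided p = 0.7, where 0.1 is the smallest possible). The virgin library had 2.10% and the lactating libraries 1.01% and 0.951%, with exact 95% intervals of 1.66 to 2.62, 0.666 to 1.46 and 0.707 to 1.25 that cover counting error only, and the mt/hGRF library had 1.72%. The 10X libraries were lowest among those of 8 weeks although their cells were deepest.

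**Figure D5:**
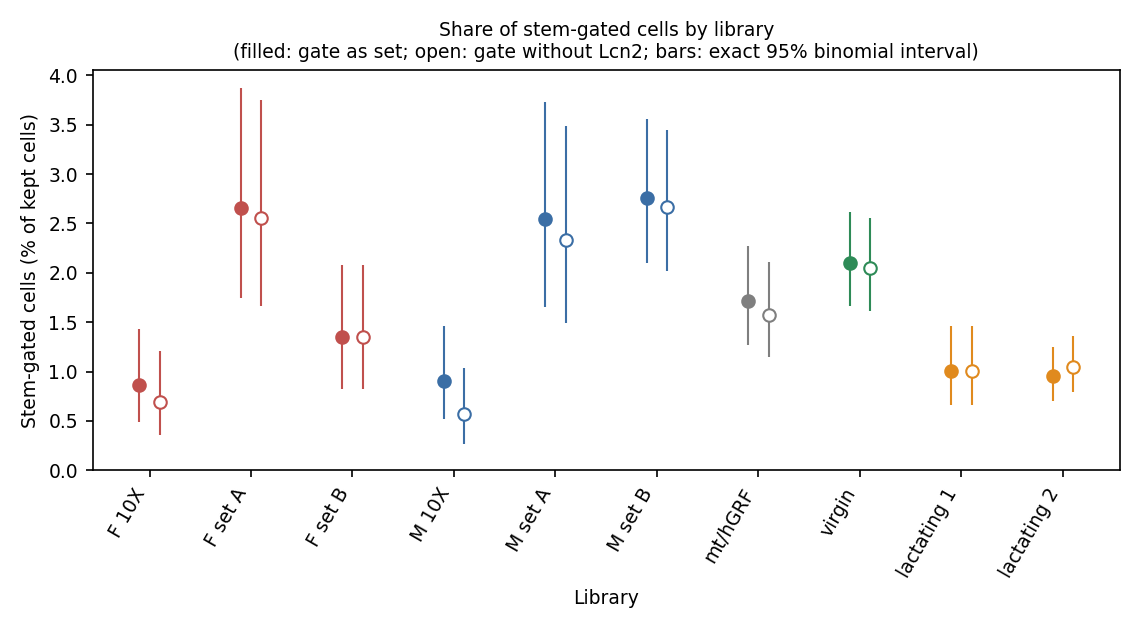
Share of kept cells that passed the stem gate, in percent, by library, with the gate as set (filled) and without Lcn2 (open), and exact 95% binomial intervals. F and M are wild-type female and male libraries of 8 weeks; the filled values run from 0.869% to 2.76% and the open ones from 0.566% to 2.67%, and the 2 lactating libraries lie below the virgin one.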

How the data were processed

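The deposited files were tables of UMI counts per gene and cell. Per the labels and methods, the authors made the Drop-seq counts by alignment to mm10 with STAR 2.5.2a and stranded exonic counting, merging near-identical UMIs, and the 10X counts with Cell Ranger, whose version is not given in the sources used here. Cells were kept with at least 300 UMIs and 100 to 4000 genes (Drop-seq) or more than 200 and fewer than 3000 genes (10X), and a mitochondrial share below 0.1. No doublet caller was run. Cells of 1 class and library were summed where there were at least 10, and the sums were tested with edgeR 4.0.16 in R 4.3.3 (quasi-likelihood, TMM, library and class as terms, or group and platform between conditions), with Benjamini-Hochberg adjustment over all genes that passed edgeR's filter on low counts and a threshold of 0.05. DESeq2 1.42.0 was an alternative. The tests were checked on simulated counts in which 200 genes were changed. Of those changed by 1 on the log2 scale and tested, 32.7% were called between stem-gated and Pou1f1-lineage cells. The share was 10.9% between the sexes in stem-gated cells and 20.4% in whole libraries. For changes of 3 the shares were 97.2%, 85.3% and 95.6%. A marker not called between conditions may thus still differ by the smaller amount. Intervals are exact, and floors are 3 UMIs. The 71 gate genes included no marker described here. The members and lists were chosen with earlier results of these data known. The genes named beside the markers were all those of the pathway lists that passed the filter, with examples given and some genes of the gate and pathway lists not reported here, and the 2 genes of highest Pearson r per marker. Male and female libraries with the same number in the labels, and those by 10X, deviated together (r of deviations 0.919, 0.704 and 0.806 over 3745 genes), so that the numbers were taken to pair the samples.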

Additional observations from a re-analysis of the deposited data

Results flagged for a closer look

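The barcodes that held too few UMIs to count as cells, which enter no comparison, held every marker. Summed over libraries they gave 5082773 UMIs in 10X and 1598791 in Drop-seq libraries. In UMIs per 10000, Sox2 stood at 0.244 in 10X and 0.313 in Drop-seq, Sox9 at 0.0787 and 0.113, and Aldh1a2 at 0.140 and 0.206. Mia was highest at 4.16 and 1.66, Folr1 was at 0.616 and 0.225 and Aldoc at 0.669 and 0.438. Fstl1 was at 0.134 and 0.300, Vim at 1.00 and 0.738 and S100b at 0.116 and 0.0813. The levels of all 9 markers in the Pou1f1 lineage were below both of these values. A further 17 cells that passed no gate held UMIs of at least 4 markers, which is 0.151% of the ungated cells.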

How the results depend on the processing

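Of 1390 values of single markers under alternative settings, 1367 stayed on their side of the threshold, among them 55 uncalled values whose sign changed, 18 lost a call, 4 gained one and 1 reversed, and 169 of 175 counts of called markers stayed within 1.5 times. The reversed value was that of Fstl1 between stem-gated and collagen-gated cells, -0.68 on the log2 scale with the gates without Lcn2 and Col1a2. With these gates, chosen after seeing the data, 4 markers instead of 2 were called in collagen-gated cells against the Pou1f1 lineage. Without the virgin library 1 marker was called in pituicytes against the Pou1f1 lineage, and 0 in stem-gated cells against pituicytes, as also without lactating library 2, each of which leaves 1 library with pituicytes. DESeq2 called 1 in that comparison, where it gave Aldh1a2 and Folr1 no adjusted p (unadjusted p = 0.000281 and 0.000307). With no filter on low counts 1 marker, Vim, was called in the whole mt/hGRF library. The cause of these changes was not tested. Leaving out each library in turn gave 8 called markers for stem-gated cells against the Pou1f1 lineage, 1 to 4 for pituicytes and 2 for collagen-gated cells against it, 0 to 3 for stem-gated cells against pituicytes, 6 to 7 against collagen-gated cells and 0 in every comparison of conditions. The sex difference in the share of stem-gated cells ran from 0.0649 to 1.02 percentage points. With the replicate block, pairing male and female libraries of the same number or platform, 0 markers were called and the share gave p = 0.75 (exact permutation test, smallest possible 0.25), and no call changed. Comparisons of the virgin and mt/hGRF libraries could not be made without those single libraries. Leaving out the barcodes rich in ribosomal pseudogenes between conditions, and the 5% of cells with most UMIs in whole libraries, were also added after seeing the data. S100b had 80 UMIs in all kept cells.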
